A study of Homo sapiens with 6 samples.

Results

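Long unnamed loci are stretches of the genome over 2000 bases long that the deposited RNA-seq table lists as a locus without a gene symbol. They were chosen by length and missing symbol, with a value above 0 in at least 1 group, and 1006 of the 41656 loci of the table met this rule. The table holds 13978 unnamed loci in all, so 12972 unnamed loci of up to 2000 bases and 27678 named loci were left as comparison. The long unnamed loci summed to 4.67 Mb of length, or 4.50 Mb with overlaps counted once, with a median length of 3168.5 bases and a range of 2001 to 74421 bases.

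The cells were MCF10A, an established non-tumour breast epithelial line, transfected at 30 nM for 72 h with either a non-targeting siRNA (siNT, 3 samples) or siRNAs against PAX9 (siPAX9, 3 samples). Poly(A)+ RNA was sequenced as single-end reads of 76 nt. The question was which transcripts change when PAX9, a paired-box transcription factor known from tooth and pharyngeal pouch development, is reduced. Each group is given as 1 value per locus, the authors' pooled FPKM (fragments per kilobase of transcript, scaled by the number of mapped reads). The table gives no spread between samples, count or depth, so differences below are descriptions of 2 pooled values with no test.

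The targeted gene was checked before any other locus. PAX9 had 2.80 FPKM in siNT and 0.325 in siPAX9, the direction its label gives. All 11 basal and mammary epithelial markers were present, with a summed level of 4276 FPKM in siNT and 5593 in siPAX9 and KRT17 as the most abundant; TP63, ITGB4, EGFR and LAMB3 were lower and the other 7 higher. CDKN2A, which MCF10A lacks, was listed at 0 in both groups. Of 6 luminal markers 3 were above 1 FPKM (KRT8, KRT18 and GATA3), with a sum of 270 in siNT and 186 in siPAX9; KRT18 alone was lower, with 212 and 119, while KRT8 and GATA3 were higher. The 4 leukocyte markers summed to 14.6 and 56.7 FPKM, nearly all from CD14, while CD3E was listed at 0 and PTPRC had 0.0166 and 0.0922. The 4 fibroblast markers summed to 5.87 and 38 FPKM, nearly all from DCN, while COL1A2 had 0 and 0.00337. The 3 endothelial markers summed to 0.801 and 1.96 FPKM, led by KDR, with CDH5 at 0 in siNT. The part of other cell types in the results below was not tested. In such bulk RNA, fewer cells of a type and less RNA per cell cannot be told apart.

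A locus without a symbol can hold several kinds of RNA. Known sources are long noncoding RNA that an annotation does not list, intron RNA kept in a precursor, RNA that continues past the end of a gene, repeats, and processed pseudogenes, which are copies of a spliced mRNA pasted back into the genome. Most poly(A)+ RNA is cut shortly after a signal whose usual form is AATAAA, and a short read from a copied mRNA can fit both the copy and its source gene.

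Sequences of hg19 show what lies at the borders of the loci. Among runs of adjacent unnamed loci, the one with the most long loci, on chromosome 21, breaks off again and again. The first set shows 5 of the 7 left ends of this run that share an 11-base stretch. These 50 bases are read on the minus strand towards the left border, and capitals mark GTGATTTAATC, a stretch picked after the sequences were seen.
XLOC_023581, chr21:15224428-15224477: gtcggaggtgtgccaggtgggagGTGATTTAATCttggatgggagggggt
XLOC_023583, chr21:15241014-15241063: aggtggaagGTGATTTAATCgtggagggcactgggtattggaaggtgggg
XLOC_023585, chr21:15244314-15244363: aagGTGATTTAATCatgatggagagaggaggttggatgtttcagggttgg
XLOC_023588, chr21:15257469-15257518: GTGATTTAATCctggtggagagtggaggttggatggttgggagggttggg
XLOC_023589, chr21:15260579-15260628: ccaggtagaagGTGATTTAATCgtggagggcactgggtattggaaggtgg

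The bases between these loci, which belong to no locus of the table, are shown on the plus strand because they are rich in C. No base is marked in them.
Gap between XLOC_023581 and XLOC_023582, chr21:15228059-15228128: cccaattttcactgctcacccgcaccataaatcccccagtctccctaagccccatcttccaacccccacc
Gap between XLOC_023582 and XLOC_023583, chr21:15240959-15241013: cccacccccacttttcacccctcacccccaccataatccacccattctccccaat
Gap between XLOC_023585 and XLOC_023586, chr21:15246820-15246881: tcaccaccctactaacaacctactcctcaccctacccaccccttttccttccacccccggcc
Gap between XLOC_023588 and XLOC_023589, chr21:15260511-15260578: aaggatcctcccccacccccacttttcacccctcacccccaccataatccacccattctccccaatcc

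The third set shows the 4 ends, among the 40 ends of 20 loci named for their change or level, that hold AATAAA, in capitals, within 50 bases of the border. A right end is read on the plus strand and a left end on the minus strand, so that each runs towards its border.
XLOC_029992, right end, chr5:67106666-67106715: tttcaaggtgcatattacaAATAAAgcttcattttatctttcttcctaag
XLOC_026505, right end, chr3:149701316-149701365: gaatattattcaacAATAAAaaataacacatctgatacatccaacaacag
XLOC_026340, left end, chr3:116363074-116363123: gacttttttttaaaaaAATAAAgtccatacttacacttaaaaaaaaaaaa
XLOC_016409, left end, chr17:29360807-29360856: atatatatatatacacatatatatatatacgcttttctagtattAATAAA

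The last sequence comes from XLOC_005198, the long unnamed locus with the highest level, which is a copy of the mRNA of NAMPT, the rate-limiting enzyme of NAD salvage. Over 1453 bases aligned with the NAMPT transcript 12 differed. Capitals mark the 4 that differ in this stretch of 100 bases, which lies in the reading frame and is read on the plus strand.
XLOC_005198, chr10:36812835-36812934: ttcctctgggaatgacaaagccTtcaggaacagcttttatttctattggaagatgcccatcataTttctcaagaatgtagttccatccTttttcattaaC

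Most long unnamed loci were weakly expressed. Their median was 1.06 FPKM in siNT and 1.44 in siPAX9, and the median of the mean of both groups was 1.26. The same median was 0.800 for named loci over 2000 bases and 1.72 for shorter unnamed loci. A mean of at least 1 FPKM was reached by 683 of the 1006 loci, at least 5 by 46, at least 10 by 19 and at least 50 by 3. The authors' status was OK for 1001 loci and NOTEST for 5. At the length limit, XLOC_003367 with 2001 bases had 1.88 FPKM in siNT and 1.00 in siPAX9. XLOC_003276 with 2001 bases had 0.633 and 1.77, and XLOC_037056 with 2001 bases had 0.682 and 0.991. XLOC_002773 with 1999 bases, just outside, had 0.365 and 1.67.

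More long unnamed loci were higher than lower in siPAX9. Among the 683 loci with a mean of at least 1 FPKM, 142 (20.8%) were at least 2-fold higher in siPAX9 and 19 (2.78%) at least 2-fold lower. Over all 22043 loci of the table with that mean the shares were 12.9% higher and 8.94% lower, and over 12296 named loci over 2000 bases they were 6.49% higher and 6.82% lower. Changed in either direction were 161 long unnamed loci, or 23.6% (95% Wilson interval 20.5 to 26.9; such intervals hold for counting error alone), against 21.8% of all loci and 13.3% of the named loci over 2000 bases. A locus low in siNT could pass the minimum through its siPAX9 value, and the 683 are not all members, so these counts describe the loci that passed.

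The distribution was shifted upwards at low levels. The median log2 ratio of siPAX9 to siNT was 0.30 (quartiles -0.14 and 0.86), and 462 of the 683 loci (67.6%) were above 0. Named loci over 2000 bases had a median of -0.07, with 44.6% above 0. Shorter unnamed loci, of which 8765 reached the minimum, had a median of 0.01, with 21.05% at least 2-fold higher and 12.3% at least 2-fold lower. By level the median of the long unnamed loci was 0.33 at a mean of 1 to 2 FPKM, 0.28 at 2 to 5, -0.07 at 5 to 10 and -0.17 at 10 or more, with 13 of 27 and 6 of 19 loci above 0 in the upper pair of bins; named loci over 2000 bases had 0.15, 0.01, -0.03 and -0.13. At least 4-fold higher were 49 of the 683 long unnamed loci, and 4 were at least 4-fold lower. Over all 22043 loci these counts were 1056 and 353, and over 12296 named loci over 2000 bases 249 and 130.

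With 1 added to each FPKM, which shrinks the ratio of weak loci, 63 long unnamed loci were at least 2-fold higher and 6 lower. Over all loci that rule gave 8.50% higher and 6.78% lower, beside 9.22% and 0.878% of the long unnamed loci. Their share of higher loci was then close to that of the table, and their share of lower loci remained below it. Named loci over 2000 bases had 4.48% higher and 4.79% lower by that rule.

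**Figure D1:**
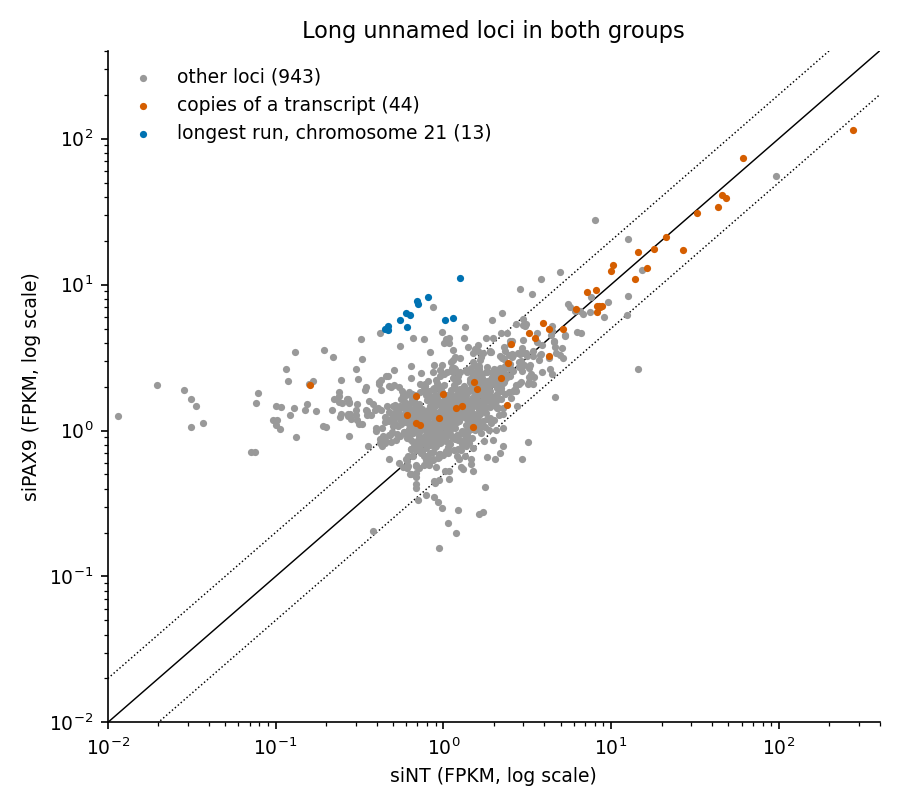
Each point is 1 long unnamed locus, with its FPKM in siNT on the horizontal and in siPAX9 on the vertical log axis; 6 loci under 0.01 FPKM in a group are not drawn, the solid line marks equal values and the dotted lines 2-fold differences. The 13 long loci of the chromosome 21 run (blue) lie between 4.90 and 11.02 FPKM in siPAX9. The 44 loci matched to a transcript elsewhere (orange) hold 14 of the 19 loci with a mean of 10 FPKM or more.

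The comparison with named loci differed by level. With a mean of 1 to 2 FPKM, 95 of 453 long unnamed loci (20.97%) were at least 2-fold higher, beside 220 of 1164 named loci over 2000 bases (18.9%). At the same level 15 long unnamed loci (3.31%) were at least 2-fold lower, beside 126 named loci (10.8%). With a mean of 2 to 5 FPKM, 41 of 184 long unnamed loci (22.3%) were higher and 2 (1.09%) lower, beside 10.1% and 9.93% of 2175 named loci. The gap in the higher share was thus small among the weakest loci, while the lower share was smaller than that of named loci at both levels. Of 27 loci with a mean of 5 to 10 FPKM, 5 were higher and 1 lower, beside 5.00% and 6.27% of 2601 named loci. Of 19 with 10 or more, 1 was higher and 1 lower, beside 3.59% and 5.25% of 6356 named loci. By length, 54 of 261 loci of up to 3000 bases were higher (20.7%), 27 of 142 loci over 5000 and up to 10000 bases (19.01%) and 17 of 60 loci over 10000 bases (28.3%); named loci were not split by length.

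**Figure D2:**
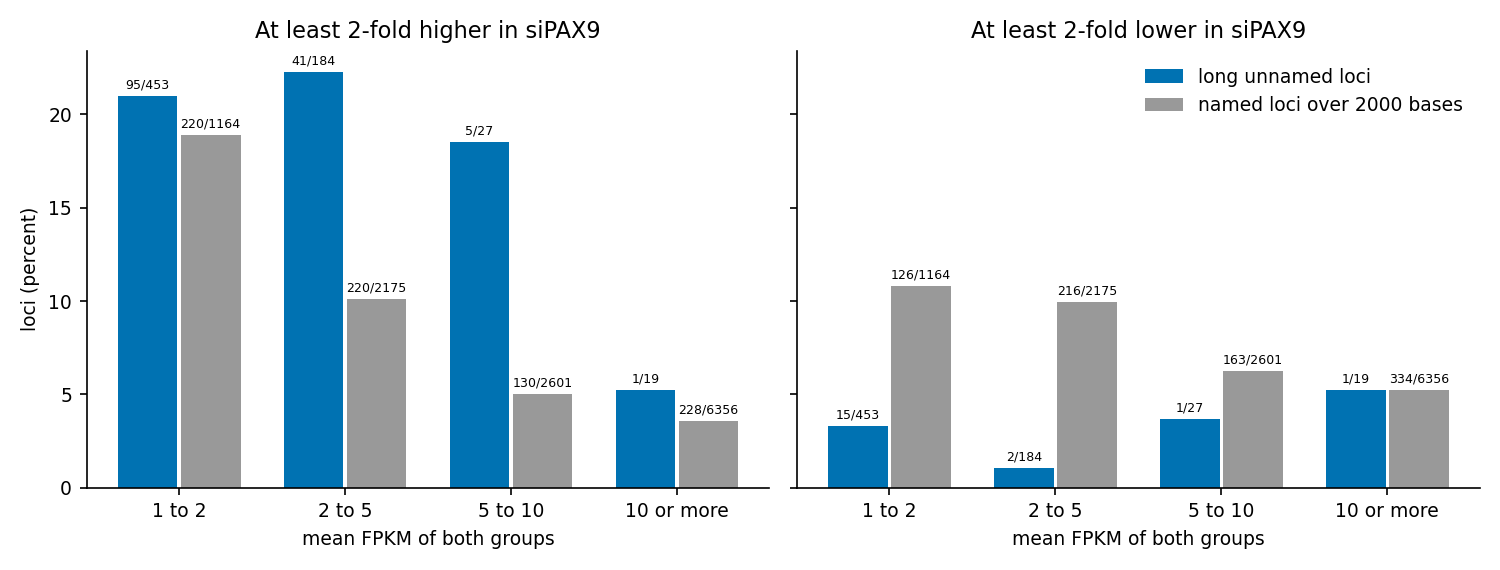
Bars give the percent of loci at least 2-fold higher (left) or lower (right) in siPAX9, by the mean FPKM of both groups, for long unnamed loci (blue) and named loci over 2000 bases (grey); numbers are loci past the fold over loci in the bin. At a mean of 2 to 5 FPKM the long unnamed loci stand at 22.3% higher and 1.09% lower, and the named loci at 10.1% and 9.93%.

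A later annotation names many of these places. Against GENCODE 44 on the same build, 320 loci overlapped no gene, 309 a protein-coding gene, 305 a long noncoding RNA gene but no protein-coding gene, 59 a pseudogene only and 13 another kind of gene. An annotated exon was missing from 500 of the 1006 loci. The loci outside any gene had the highest share of increases among the 4 large classes: 57 of 194 with a mean of at least 1 FPKM (29.4%) were at least 2-fold higher and 2 lower, with a median log2 of 0.50. The 13 long loci of the chromosome 21 run, all at least 2-fold higher, lie outside any gene or in a pseudogene. They are counted singly in these shares, and the shares by class were not computed without that run. Loci in protein-coding genes had 33 of 211 higher (15.6%) and 8 lower, with a median of 0.20. In long noncoding RNA genes 37 of 217 (17.1%) were higher and 6 lower, and in pseudogenes 9 of 50 were higher and 2 lower.

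Long unnamed loci often sat beside a named locus. Within 5 kb of a named locus or overlapping it lay 458 of 1006 (45.5%, Wilson 42.5 to 48.6), of which 14 overlapped. A further 468 lay 5 to 50 kb away and 80 farther, with a median distance of 5988 bases. Where the strand of the named gene was known, 238 of the loci within 5 kb lay downstream of the gene and 165 upstream, and for 41 the strand could not be matched. Downstream loci had 27 of 172 at least 2-fold higher and 5 lower, and upstream loci had 26 of 121 higher and 1 lower.

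The change of a long unnamed locus went in part with that of its neighbour. Of 621 with a log2 ratio in both, 402 had the sign of the nearest named locus (64.7%, Wilson 60.9 to 68.4), and Pearson's r across loci was 0.61. Named loci and their nearest named locus had the same sign in 5766 of 10215 cases (56.4%), with an r of 0.25. These points share the same libraries, and loci with 1 neighbour are not independent of each other.

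The relation was also read by distance and side. Where the neighbour also had a mean of at least 1 FPKM, r was 0.53 over 289 loci within 5 kb, 0.78 over 229 loci at 5 to 50 kb, and 0.11 over 28 loci farther away. With the loci of each named neighbour averaged to 1 value, r was 0.51 over 273 neighbours within 5 kb and 0.66 over 156 neighbours at 5 to 50 kb. Within 5 kb, 107 of 155 downstream loci had the sign of the gene (r 0.63), and 59 of 109 upstream loci did (r 0.41), beside 23 of 25 with no matched strand (r 0.76). At 5 to 50 kb the share was again higher downstream, with 98 of 138 against 29 of 53 upstream and 26 of 38 with no matched strand. There r was 0.76, 0.86 and 0.73. The upstream loci at that distance include several of the chromosome 21 run that share 1 named neighbour. By side, r was not computed with 1 value per neighbour, so no order of r by side is read from these values. For named pairs within 5 kb, 1696 of 2939 had the same sign (r 0.20).

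Levels beside the gene were low on both sides. In siNT the downstream loci stood at a median of 11.6% of the FPKM of the neighbour and the upstream loci at 10.6%, and in siPAX9 at 14.98% and 13.8%. The ratio of locus to gene was higher in siPAX9 for 92 of 155 downstream loci and for 82 of 109 upstream loci, with median log2 differences of 0.13 and 0.43. Of 19 loci within 5 kb of a gene that was at least 2-fold higher, 16 were also at least 2-fold higher. Of 15 beside a gene at least 2-fold lower, 2 were lower by that much too. For named pairs within 5 kb these counts were 19 of 97 and 18 of 201.

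**Figure D3:**
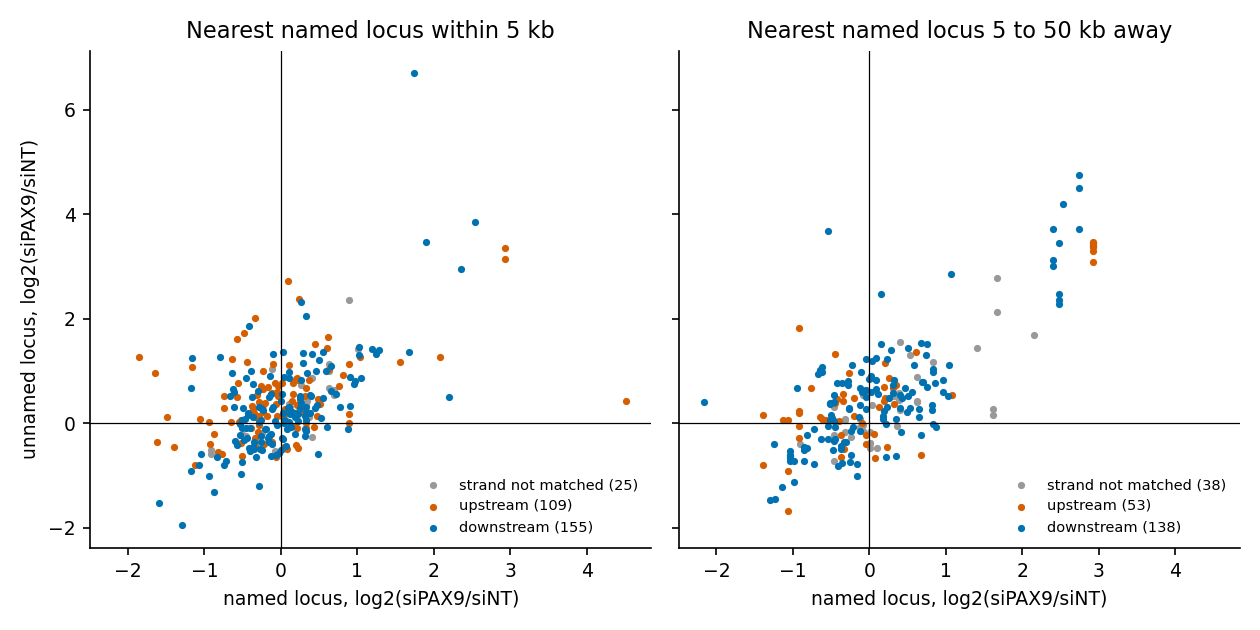
Each point sets the log2 ratio of siPAX9 to siNT of a long unnamed locus (vertical) against that of its nearest named locus (horizontal), both with a mean of at least 1 FPKM, for distances of up to 5 kb (left, 289 loci) and 5 to 50 kb (right, 229 loci), coloured by the side of the gene. Points lie along a rising band in both panels, with r of 0.53 and 0.78.

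Long unnamed loci came in runs. Unnamed loci at most 1000 bases apart were joined, which gave 727 runs with a long unnamed locus, and 463 of the 1006 loci stood in the 184 runs that held at least 2. Adjacent unnamed loci overlapped in 3 cases, and the smallest gap between the others was 50 bases. In 81 of the 102 runs with at least 2 long loci at a mean of 1 FPKM (79.4%) all of these were on the same side of 0, 67 above and 14 below. Over the 102 runs the log2 ratios within a run spanned a median of 0.26. Of all 525 runs with a locus at that mean, 107 (20.4%) held one at least 2-fold higher and 18 (3.43%) one at least 2-fold lower, so the excess of increases was also there when runs were counted.

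The run with the most long unnamed loci lay on chromosome 21 (chr21:15224428-15280392). It lay between CYP4F29P, a cytochrome P450 pseudogene, and ANKRD20A11P, an ankyrin repeat pseudogene. It held 19 unnamed loci that covered 96.4% of 55965 bases, and 13 of them were over 2000 bases long. All 13 were higher in siPAX9, with 0.452 to 1.25 FPKM in siNT, 4.90 to 11.02 in siPAX9 and log2 ratios of 2.37 to 3.48. The run also held 7 of the 8 largest increases with 1 added, among them the 5 loci whose ends are printed above.

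Levels did not fall evenly along the run. The highest was that of a locus of 161 bases at the far end, XLOC_023598, with 9.44 FPKM in siNT and 54.8 in siPAX9, and XLOC_023584, with 518 bases, had 1.55 and 11.9; both were chosen after their values were seen. Among the 13 long loci XLOC_023581, 74 bases from CYP4F29P, was highest in siPAX9 and had 1.25 FPKM in siNT and 11.02 in siPAX9. XLOC_023582, the longest locus of the run with 12830 bases, had 0.809 and 8.25. XLOC_023585 had 0.697 and 7.66, a 10.99-fold difference. These 3 were below CYP4F29P itself, which had 1.71 FPKM in siNT and 12.98 in siPAX9. XLOC_023583 had 0.709 and 7.35 FPKM. XLOC_023586 had 0.596 and 6.42. XLOC_023588 had 0.631 and 6.20. XLOC_023589 had 0.548 in siNT and 5.74 in siPAX9, and at the far side ANKRD20A11P, 35.7 kb beyond the run, had 0.422 and 2.35. The run lies on the upstream side of CYP4F29P.

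**Figure D4:**
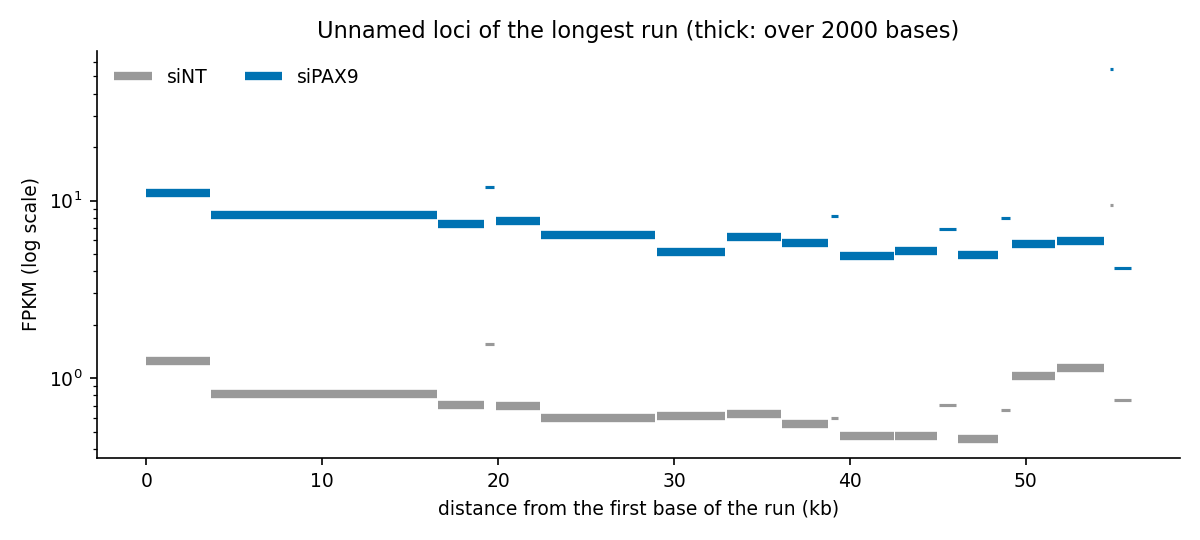
Horizontal lines span the unnamed loci of the chromosome 21 run by their distance from its first base in kb. They lie at the FPKM (log axis) in siNT (grey) and siPAX9 (blue), and thick lines are loci over 2000 bases. All 13 thick lines lie higher in siPAX9, from 4.90 to 11.02 FPKM, than in siNT, from 0.452 to 1.25.

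The run is a tandem repeat. Aligned with itself, 92.5% of its bases lay in matches of at least 500 bases and 75% identity, and the longest match spanned 16196 bases at 93.1% identity with an offset of 19571 bases. There were 15 matches with offsets of 3000 to 3500 bases, at a median offset of 3204 bases and a median identity of 79.4%. Of the windows of 76 bases in its 13 long loci, 79.9% occurred once in the genome, so part of the reads could fit several of these loci and single values within the run are uncertain.

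Its breaks were rich in C. The 18 gaps held 2007 bases in all, with a median of 52.4% C against 26.9% in the loci, and 7.13% G against 19.4%. In 15 gaps the share of C was higher than in any locus of the run, where it reached 32.9%. The 11-base stretch GTGATTTAATC, read on the minus strand, was in the last 50 bases of 7 of 19 left ends. Searched on both strands, the stretch was in 0 of 19 right ends and in 18 of 1119 windows of 50 bases side by side along the run (1.61%). It was picked because it was seen in these left ends, so this count is a description and no test of a link with the breaks. The 55-base gap between XLOC_023582 and XLOC_023583 matched the run at 15 places besides itself, with a median step of 3126 bases counting itself, and 6 of the 15 lay within 100 bases of a gap, a reach that takes in 9.95% of the run.

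Breaks rich in C or G were also counted over the whole genome, the chromosome 21 run included. Of 314 gaps of up to 100 bases beside a long unnamed locus, 15.9% had at least 40% C or at least 40% G, against 3.18% of 628 windows of 75 bases at the centre of the flanking loci. Of the windows of 76 bases in gaps of up to 1000 bases, 77.6% occurred once in the genome, against 87.3% in the long unnamed loci. In the chromosome 21 run the order was reversed, with 87.5% in its 18 gaps and 79.9% in its 13 long loci.

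Several other runs were higher beside genes that were higher. XLOC_012746 on chromosome 15 had 0.868 FPKM in siNT and 6.996 in siPAX9, and NBEAP1, a neurobeachin pseudogene 13.4 kb away, had 3.18 and 16.9. Its run held 3 long loci with log2 ratios of 3.01 to 3.71. The examples that follow were chosen after their values were seen. Downstream of SULT1E1, an oestrogen sulfotransferase, XLOC_028115 had 0.194 FPKM in siNT and 3.57 in siPAX9, while SULT1E1 had 7.82 and 45.2. The locus and the gene were higher together. XLOC_003764 on chromosome 1, downstream of C1orf74, had the highest plain ratio among the 683 loci, with 0.0198 and 2.04 FPKM, while C1orf74 had 7.61 and 25.5.

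Some runs moved further than their neighbour or against it. A run is set here beside the named locus nearest to any of its long loci, and other named loci can lie nearer to single loci. Of the 67 runs above 0, this neighbour was above 0 in 39 and below 0 in 22, and it had no ratio in 6. Downstream of FOXO1, a forkhead transcription factor, 3 long loci were all at least 2-fold higher, with log2 ratios of 1.16 to 1.41, while FOXO1 was higher by less, with 20.98 FPKM in siNT and 25.6 in siPAX9. Upstream of ACAT2, an acetyl-CoA acetyltransferase, 3 of 4 long loci of a run were at least 2-fold higher, while ACAT2 was lower, with 24.2 and 12.8. In a run nearer to ACAT2, 3.46 kb away, 3 of 4 long loci were below 0, with log2 ratios of -0.40 to 0.20; 2 of these 4 overlap SOD2 in GENCODE, and the SOD2 locus had 2209 and 1602 FPKM. These runs were also chosen after their values were seen.

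Runs that were lower were fewer. Of the 14 runs below 0, the nearest named locus was below 0 in 9 and above 0 in 5. Beside ANKRD18B on chromosome 9 all 7 long loci were lower, with log2 ratios of -0.72 to -0.53, and ANKRD18B, the nearest to 6 of the 7, had 4.42 FPKM in siNT and 2.15 in siPAX9; ANXA2P2, the nearest to the other, was higher, with 507 and 812. Beside ANKRD18A all 6 were lower, with ratios of -0.59 to -0.40, and ANKRD18A had 4.45 and 3.45, and FAM95C, the nearest to 3 of the 6, had 11.1 and 5.89. Downstream of PUM3 all 5 were lower, with ratios of -1.04 to -0.45, and PUM3 had 36.02 and 19.9. All 5 overlap PUM3 in GENCODE, and KCNV2, the nearest to 2 of the 5, had 0.510 and 0.212. The gene that each of these 3 runs is set beside was lower too. Beside DNAJA1, which had 78.7 and 92.3, all 3 long loci were lower, with ratios of -0.48 to -0.44, but all 3 lie in APTX in GENCODE, whose locus is 127 bases from 1 of them and was lower, with 18.8 and 14.9. Near SERF1A, which had 20.7 and 20.9, all 4 were lower, with ratios of -0.46 to -0.17. All 5 runs were chosen after their values were seen.

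Among loci with a mean of at least 1 FPKM, the 8 largest decreases with 1 added lay on chromosomes 4, 5, 10, 11, 16 and 20, with 2 on chromosome 10 and 2 on chromosome 16. XLOC_013324 on chromosome 16 had 14.4 FPKM in siNT and 2.64 in siPAX9. It overlaps NPIPA1 and PKD1P3, members of duplicated families, and 5.31% of its windows of 76 bases occurred once, so its values are uncertain. XLOC_007689, downstream of NNMT, the nicotinamide N-methyltransferase, had 3.20 and 0.829, while NNMT had 435 and 178. XLOC_005527, which overlaps HELLS in GENCODE, a chromatin remodelling helicase, had 4.62 and 1.71, while the HELLS locus had 7.06 and 3.00. In the last 2 cases the locus and the gene were both lower.

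The other decreases had silent or nearly silent neighbours. XLOC_023182 on chromosome 20 had 2.96 FPKM in siNT and 0.641 in siPAX9, and its neighbour MIR1-1HG was listed at 0 in both groups. XLOC_014607 on chromosome 16, inside CES1P1 of GENCODE, had 1.73 and 0.277. XLOC_029992 on chromosome 5, whose right end with AATAAA is printed above, had 1.77 and 0.408. These 3 stood among windows that mostly occur once, at 100%, 97.2% and 100%. XLOC_027824 on chromosome 4, inside SLC2A9, a urate transporter gene, and upstream of the dopamine receptor gene DRD5, had 2.17 and 0.704, while DRD5 had 0.0594 and 0.0723.

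Most of the strongest loci matched an mRNA from elsewhere. A locus was called a copy where at least 50% of it aligned, at 90% identity or more, to a canonical protein-coding transcript of a gene located elsewhere, and 44 of 1006 loci (4.37%) met this, from 38 genes. They were 14 of the 19 loci with a mean of at least 10 FPKM and 18 of the 637 with a mean of 1 to 5. The rule does not separate mRNA copies from duplicated genes and shared repeats. In GENCODE 25 of the 44 overlap a processed pseudogene, among them 12 of the 14, and 8 another pseudogene, while 11 overlap none. Windows found at 10 or more places occurred in 0 of the 25, in 1 of the 8 and in 5 of the 11. Only 53.4% of their windows of 76 bases occurred once in the genome, so reads of a copy and its gene could have been split between them and the values of both are uncertain.

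The change of most copies lay close to that of their gene. In 38 pairs with a mean of at least 1 FPKM in both, 30 had the same sign and 31 differed by at most 0.25 on the log2 scale, with a median absolute difference of 0.13. Across these pairs r was 0.27, and across the 29 pairs with an identity of at least 95% it was 0.87, with 26 within 0.25. Against the nearest named locus copies of that identity differed by a median of 0.67, with an r of 0.14 over 15 loci. The pairs share libraries and, in part, identical sequence.

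The copies among the 5 strongest loci moved with their gene. XLOC_005198 had 276 FPKM in siNT and 114 in siPAX9, and NAMPT had 192 and 75.3. Identical to the transcript were 50.9% of its windows of 76 bases. XLOC_026340, a copy of BZW1, had 61.1 and 73.5, and BZW1 had 54.7 and 64.4. Copy and gene thus moved the same way in both. XLOC_026505, a copy of TMEM183A, had 48.5 and 39.1, and TMEM183A had 49.3 and 40.9. XLOC_019218, a copy of the mRNA of CS, the citrate synthase, had 45.9 and 40.8, and CS had 98.0 and 76.2. XLOC_016409, not a copy by this rule, had 96.1 and 55.7 and holds 392 bases that match the ribosomal protein mRNA of RPL41 at 98.5% identity. RPL41 had 946 and 606 FPKM, so this locus too moved with the gene it matches. Weaker copies, chosen after their values were seen, did not. The 2 copies with a mean of at least 1 FPKM that were at least 2-fold higher, XLOC_007438 with 0.160 and 2.04 and XLOC_037259 with 0.688 and 1.73, match SOD2, which was lower; their identity was 90.6% and 92.2%, and at most 0.442% of their windows were identical to the transcript. XLOC_026537, a copy of METTL15 at 98.98% identity, had 3.51 and 4.30, while METTL15 had 7.10 and 5.56.

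**Figure D5:**
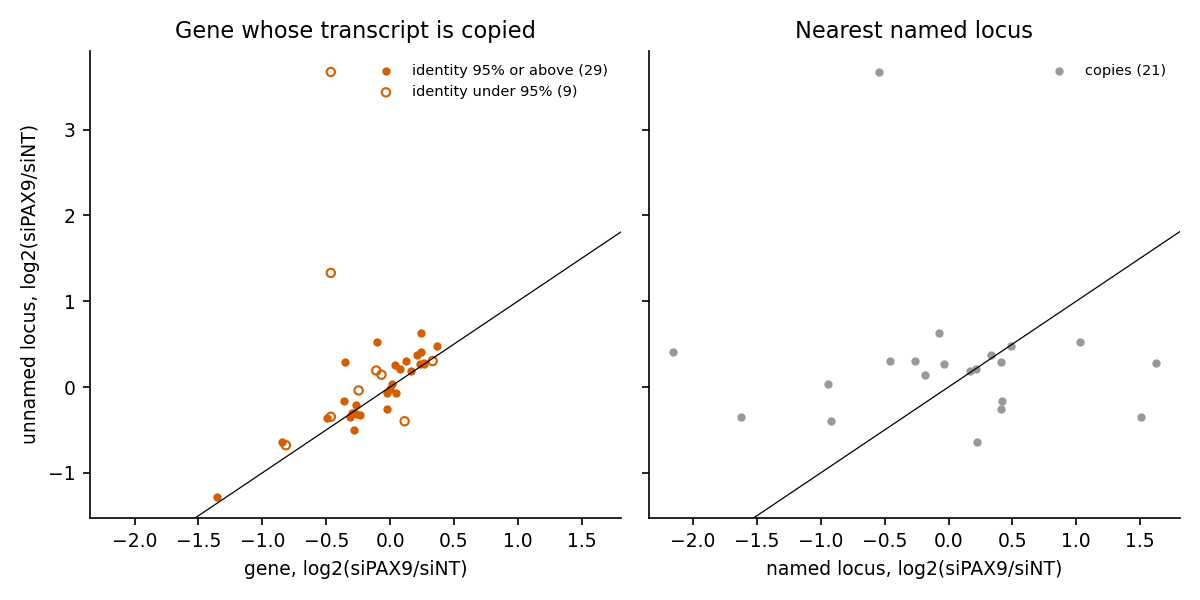
Points are long unnamed loci that are copies of a transcript, with their log2 ratio of siPAX9 to siNT on the vertical axis, against the gene whose transcript is copied (left, 38 pairs; filled, identity of 95% or above) and against the nearest named locus (right, 21 loci); the line marks equal ratios. On the left 31 of 38 lie within 0.25 of the gene.

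Outside the copies, 140 of 642 loci with a mean of at least 1 FPKM were at least 2-fold higher and 18 lower. Loci were also split by uniqueness of sequence. With 90% or more of their windows found once, 95 of 482 loci (19.7%) were higher and 16 (3.32%) lower, and with under 50% found once, 24 of 131 (18.3%) were higher and 1 lower, while in between 23 of 69 (33.3%) were higher and 2 lower. Of all windows in long unnamed loci 87.3% occurred once, beside 95.6% of windows taken across the genome.

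The hexamer AATAAA was more frequent at the ends of long unnamed loci than inside them. In the 50 bases before the right border, or as its reverse complement after the left border, it was present in 128 of 1005 loci (12.7%, Wilson 10.8 to 14.9), against 84 (8.36%, Wilson 6.80 to 10.2) in windows of the same size at their centre. On 1 strand, 4.36% of all windows of 50 bases in these loci and 4.77% across the genome held it. Of the loci at least 2-fold higher 17 of 142 had it at an end and 12 at the centre. Of those lower 3 of 19 had it at an end and 3 at the centre. Copies had it at an end in 9 of 44 and at the centre in 3. In the same order, loci outside any gene had 46 and 25 of 320. Loci in protein-coding genes had 46 and 28 of 308, and loci in long noncoding RNA genes 27 and 23 of 305. Most long unnamed loci therefore had no AATAAA at a border, and other signal forms were not searched.

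The 3 longest loci with a mean of at least 1 FPKM changed less than 2-fold. XLOC_015292, with 74421 bases over ABCA6, a transporter gene, had 5.14 FPKM in siNT and 3.70 in siPAX9. A second locus with the same borders, XLOC_015290, had status NOTEST and was listed at 3.32e-68 and 6.03e-70. ABCA6 had 11.7 and 8.31. XLOC_016418, with 34950 bases, lies downstream of the named locus of ZNF207, a zinc finger gene, and overlaps ZNF207 in GENCODE. XLOC_016418 had 2.72 and 5.41, while the ZNF207 locus had 78.5 and 59.9. Here the unnamed locus was higher and the named locus lower. XLOC_002966, with 28771 bases downstream of RPE65, the retinoid isomerase gene, had 7.63 and 8.21, while RPE65 had 17.2 and 12.3. Reads on overlapping loci could not be told apart by strand.

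Of the 1006 loci 7 (0.696%) had a neighbour in 1 of 5 gene lists, which hold 185 of 27678 named loci (0.668%). Of these lists, replication-dependent histones and epidermal differentiation genes were the neighbour of 0 loci, G2/M genes of 4, interferon response genes of 1 and nuclear long noncoding RNAs of 2, and 3 of these 7 loci reached the minimum mean, with 0 at least 2-fold changed. Downstream of CDK1, the mitotic kinase, XLOC_005346 had 1.07 FPKM in siNT and 0.234 in siPAX9. XLOC_005350 had 0.942 and 0.158, while CDK1 had 25.4 and 8.17. Both were below the minimum mean and lower together with CDK1. XLOC_013031 beside CCNB2, a mitotic cyclin, had 0.436 and 0.915, while CCNB2 had 20.4 and 4.71. XLOC_032380 near TTK, a spindle checkpoint kinase, had 10.3 and 13.7, while TTK had 8.11 and 1.82. It is a copy of ARHGAP21, which had 12.8 and 15.1. XLOC_032427 beside SNHG5, a snoRNA host gene, had 2.74 and 1.46, while SNHG5 had 86.9 and 38.6. XLOC_007510 beside NEAT1, the scaffold RNA of paraspeckles, had 0.847 and 1.44, while NEAT1 had 90.7 and 164. Both noncoding RNA neighbours moved with their locus. XLOC_019212 beside BST2, an interferon-induced antiviral gene, had 0.475 and 0.930, while BST2 had 41.9 and 41.3.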

How the data were processed

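MCF10A RNA-seq was examined in 2 groups of 3 samples, siNT and siPAX9. The authors aligned reads to hg19 with Bowtie2, used Cufflinks in Partek for quantification, and deposited 1 pooled FPKM per group and locus; how libraries were scaled is not given in the sources used here. The deposited columns of fold change, test statistic, p-value, q-value and significance hold the authors' own comparison and were not used. The table holds 1 value per group, so no test was run; it gives no depth, and the range of reads per library stated in the paper's methods was not used here. Members and lists were chosen with earlier results of these data known. Log2 ratios were computed for loci with a mean FPKM of at least 1 and both values at 0.01 or above. Named by rule are the 8 largest increases and 8 largest decreases with 1 added among loci with that mean, the 5 highest, the 3 longest with that mean, those at the length limit, their neighbours, and list genes that neighbour a locus; the other named loci were chosen after their values were seen. Strand was known for 23229 of 27678 named loci. Sequence was read from hg19 with GENCODE 44, pysam 0.24.0, samtools 1.23.1 and blastn 2.17.0, in Python 3.11.15 with pandas 2.3.3 and numpy 2.4.6. Functions were tested on simulated data. Alternatives changed the added value, minimum, fold, centring, length, status, overlap, distance and window.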

Additional observations from a re-analysis of the deposited data

How the results depend on the processing

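No paired analysis was possible because the table holds 1 pooled value per group, and for the same reason no replicate could be left out. The table gives no depth, so the precision of single values was not assessed. Of 53 alternatives 31 stayed within 1.5 times the main count or inside the interval of the share. In all 15 settings more loci were higher than lower. The other 22 values follow; fewer loci or another fold enter by construction, and otherwise the cause was not tested. With 1 added, 63 loci were higher and 6 lower, 10.1% changed. With no minimum mean, 241 were higher and 35 lower of 1000, 27.6% changed. With a mean of at least 5, 6 were higher and 2 lower of 46, 17.4% changed. At 1.5-fold, 239 were higher and 62 lower, 44.1% changed. At 4-fold, 49 were higher and 4 lower, 7.76% changed. Over 1000 bases, 273 were higher and 56 lower of 1450. Over 5000 bases, 44 were higher and 7 lower of 202, and 111 of 231 lay within 5 kb of a named locus. Within 1 kb lay 192. In windows of 100 bases 22.2% of loci held AATAAA at an end and 14.7% at the centre. The higher loci were 88.2% of the changed loci, 79.4% at 1.5-fold and 75% at a mean of at least 5. Chosen after seeing the data were the settings without the chromosome 21 run, without copies and with unique windows only. So were run gaps of 200 and 5000 bases and 95% identity, and all are among the 31.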
